A study of Homo sapiens with 8 samples.

Results

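The gene set described here holds 35 human genes that NRF2 is known for or that belong to the pentose phosphate pathway, chosen by symbol from a list and found among the 61517 genes of one table of read counts. Poly(A)-selected mRNA of KYSE150, an established cell line from a human esophageal squamous cell carcinoma, was sequenced in 8 libraries, with 2 per group. The 4 groups were cells in normoxia, cells in hypoxia, cells in hypoxia given oxamate, and cells in hypoxia given oxamate together with NALA. The labels' protocol lists sodium oxamate and sodium lactate as the agents, and NALA was read as sodium lactate. All groups were the same line in the same serum-containing medium, and all but the first shared the hypoxia. The oxygen level, the doses and the durations are not stated in the labels, and there was no group in normoxia with either agent. The labels do not say whether a group's libraries are separate cultures, and the p-values describe the scatter of these particular libraries, which may be technical.

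NRF2, encoded by NFE2L2, is a transcription factor that binds antioxidant response elements as a dimer with a small MAF protein. In unstressed cells KEAP1 holds it for ubiquitination by a CUL3 ligase, and when the sensor cysteines of KEAP1 are modified NRF2 accumulates and raises enzymes of glutathione synthesis, thioredoxin reduction, quinone reduction and NADPH production. The pathway is often mutated or active in esophageal squamous carcinoma, and the pentose phosphate pathway supplies NADPH and ribose to the same cells. Oxamate is an analog of pyruvate that inhibits lactate dehydrogenase, and lactate is the product of that enzyme. By its title the series concerns lactylation of HIF-1α under low oxygen.

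An antioxidant response element reads TGACNNNGC, and the promoters that carry it among these genes are shown because several of those genes moved between the groups. RefSeq promoters (GRCh38.p14, 250 bases before and 50 after the start) were matched by symbol for 27 of the 35 members. Those not matched were GSS, GSR, PRDX1, HMOX1, AKR1B10, CBR3, ABCC1 and ABCC3. The motif, on either strand, was in 8 of the 27 promoters (29.6%) and in 3702 of all 27305 promoters of that length (13.6%). The 8 were GCLM, GPX2, GSTP1, TXNRD1, PIR, PGD, ME1 and CBR1. The pair of 5-base cores of hypoxia response elements, searched on both strands, was found as ACGTG in 4 of the 27 (14.8%, against 21.6% of all promoters) and as GCGTG in 14 (51.9%, against 36.3%). No match of either core overlapped a TGACNNNGC match in any member promoter. A match is a description of the letters in the window and not a bound site. The promoters with a match in the members of the largest fold changes are those of TXNRD1, PGD and GPX2. GPX2 was close to the detection limit, and its change, of NALA against oxamate, rests on 49 and 25 counts. Each is written 5′ to 3′ on the strand of the gene, from 250 bases before to 20 bases after the start, with the TGACNNNGC match or its reverse complement in capitals.
TXNRD1: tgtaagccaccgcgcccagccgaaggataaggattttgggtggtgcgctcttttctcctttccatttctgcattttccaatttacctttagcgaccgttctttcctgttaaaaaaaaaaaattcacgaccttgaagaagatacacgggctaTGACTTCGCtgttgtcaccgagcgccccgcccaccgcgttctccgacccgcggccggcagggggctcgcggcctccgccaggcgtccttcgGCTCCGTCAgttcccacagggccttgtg
PGD: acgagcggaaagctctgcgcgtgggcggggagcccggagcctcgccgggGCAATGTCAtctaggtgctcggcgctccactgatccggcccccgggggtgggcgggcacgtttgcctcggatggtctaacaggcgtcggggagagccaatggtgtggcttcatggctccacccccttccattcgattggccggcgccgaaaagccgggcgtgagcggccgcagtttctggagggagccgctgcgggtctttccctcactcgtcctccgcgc
GPX2: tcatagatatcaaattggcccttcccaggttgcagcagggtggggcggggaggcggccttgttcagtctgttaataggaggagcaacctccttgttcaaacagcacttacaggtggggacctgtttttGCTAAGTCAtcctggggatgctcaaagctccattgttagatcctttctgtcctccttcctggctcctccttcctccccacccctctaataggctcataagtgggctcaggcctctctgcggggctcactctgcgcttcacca
The TXNRD1 stretch lies at chr12:104215529-104215798 on the plus strand, that of PGD at chr1:10398814-10399083 on the plus strand and that of GPX2 at chr14:64942726-64942995 on the minus strand. TXNRD1 holds a match on each strand, TGACTTCGC starting 99 bases before the start and GCTCCGTCA starting 8 bases before it. The single match in PGD, GCAATGTCA, starts 201 bases before the start, and that in GPX2, GCTAAGTCA, starts 122 bases before it. Among the other members, GSTP1 and ME1 both hold the same 9 letters, TGACTCAGC, starting 66 and 137 bases before their starts.

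Libraries held 21845676 to 29406061 counts. Levels are given as TMM-scaled CPM (a count relative to the library total, rescaled so that most genes balance between libraries), and 3 counts, taken as the detection floor, were worth 0.102 to 0.137 CPM of the totals. The scaling factors separated the groups, with 1.15 in normoxia, 1.1 in hypoxia, 0.879 with oxamate and 0.901 with NALA. All 8 squamous epithelial markers were tested, and their summed level was 2430 to 4200 CPM of the totals, lowest in hypoxia and highest with oxamate. KRT5 had the highest level of the 8 in every library, at 970.0 to 3489 TMM-scaled CPM, a different scale from that of the sum. The markers did not move as one. With oxamate against hypoxia, the keratins KRT5, KRT14, KRT6A and KRT17 and also EPCAM were higher, and TP63 (-1.62), DSG3 (-1.54) and CDH1 (-1.09) were lower. The summed level was 0.0855 to 2.05 CPM over 3 leukocyte markers, 0.68 to 8.74 over 4 fibroblast markers and 0.477 to 2.41 over 4 endothelial markers, and DCN and KDR were at 0 counts in every library. Each of those 3 sums was highest in hypoxia, and the squamous sum was 4190 to 4200 CPM with oxamate against 2430 to 2440 in hypoxia; their part in the results below was not tested. The common biological coefficient of variation between the libraries of a group was 3.06%, and most of the 15554 genes tested passed in every comparison. The spread was not equal between groups. Relative to counting noise, the chi-square per degree of freedom was 1.82 in normoxia, 2.07 in hypoxia, 2 with oxamate and 4.36 with NALA. Since all groups shared one fitted spread, the standard errors and p-values of the NALA comparison may be too small.

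In hypoxia against normoxia both subunit genes of glutamate-cysteine ligase, the NRF2 inhibitor KEAP1 and the NRF2 partner MAFG were lower, while TKT and TALDO1 of the non-oxidative pentose phosphate pathway were higher. GCLC fell by 1.21 on the log2 scale, SRXN1 by 1.47, MAFG by 1.17 and KEAP1 by 0.77, and TKT rose by 0.56. Calls rest on the quasi-likelihood test of edgeR with Benjamini-Hochberg adjustment over 15554 genes and a threshold of 0.05. Of the 33 members tested, 12 were higher, 10 lower and 11 did not pass. The passing share of 66.7% stood beside 73.5% of all genes tested, of which 36.7% were higher and 36.8% lower, and the median log2 fold change was 0 for the members and 0.02 for all genes. With at least a 2-fold change as well, 5 of the 33 members passed (BLVRB and AKR1C3 higher, MAFG, GCLC and SRXN1 lower), beside 28.7% of all genes. By that much, 15.6% of all genes were higher and 13.1% lower. AKR1C3 passed the filter on low counts only through its level in hypoxia, so its call as higher adds no support. In these cultures a lower level cannot be told apart from a smaller share of cells that express the gene.

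With oxamate in hypoxia, against hypoxia alone, most members were higher. They included all 4 pentose phosphate and NADPH members and 6 of the 7 glutathione members. The quinone and haem members were split, with 2 higher, 2 lower and 1 that did not pass. NQO1 was 2.8-fold higher, GCLC rose by 1.39 on the log2 scale and PGD by 1.26. In all 21 members were higher, 8 lower and 4 did not pass, a passing share of 87.9% beside 80.5% of all genes. The higher share was 63.6% of the members beside 35.7% of all genes, and the lower share was 24.2% beside 44.8%. At least a 2-fold change was reached by 11 of the 33 members tested, beside 41.8% of all genes. Of these members 8 were higher and 3 lower, where 14.3% of all genes were higher and 27.5% lower by that much. AKR1B10 among the 8, and GPX2 and AKR1C3 among the 3, rest on few counts. The members' median was 0.49 and that of all genes -0.2. The 8 lower members were NFE2L2, GPX2, PRDX1, BLVRB, PIR, CBR3, AKR1C3 and ABCC1, and with the size factors of DESeq2 in place of TMM only 4 were lower. The other 4, NFE2L2, GPX2, PRDX1 and PIR, did not pass then. AKR1C3 passed the filter on low counts only through its level in hypoxia, so its fall adds no support. Without replicate 2 of hypoxia 5 members were lower, and without replicates 1 and 2 of oxamate in turn 3 and 4.

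When NALA was given with oxamate, members rose and fell in nearly equal number. All 3 regulators were higher and all 4 pentose phosphate and NADPH members lower, while each of the other groups of members held genes of both directions. NFE2L2, the small MAF gene, both subunits of glutamate-cysteine ligase, TXNRD1, HMOX1 and OSGIN1 were higher than with oxamate alone, and NQO1, GSTP1 and GPX4 were lower. TXNRD1 was 3.37-fold and GCLC 3.24-fold higher. A total of 13 members were higher, 14 lower and 6 did not pass, a passing share of 81.8% beside 64.9% of all genes. The higher share was 39.4% beside 33.2% of all genes, and the lower share was 42.4% beside 31.7%. The medians were -0.1 for the members and -0.02 for all genes. At least a 2-fold change was reached by 7 of the 33 members tested, all higher. They were MAFG, GCLC, GPX2, TXNRD1, HMOX1, OSGIN1 and AKR1C3. Of all genes, 14.7% were higher and 4.49% lower by that much. Among these members GPX2 and AKR1C3 rest on few counts. Over both libraries with oxamate and then with NALA, GPX2 had 25 and 49 counts and AKR1C3 had 0 and 8. Their calls failed when some single libraries were left out, as given below. Upper quartile scaling moved the median of all genes by -0.19 here and turned 5160 higher and 4927 lower genes into 4150 and 6340.

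Against normoxia, cells in hypoxia with oxamate had higher levels of the pentose phosphate members and of several glutathione and quinone enzymes. TKT was 2.68-fold higher, GSTP1 rose by 1.13 on the log2 scale, GPX4 by 1.06 and NQO1 by 1.01. Of the members, 19 were higher, 6 lower and 8 did not pass, a passing share of 75.8% beside 72.0% of all genes, and 57.6% were higher beside 31.9% of all genes, with 18.2% lower beside 40.1%. At least a 2-fold change was reached by 7 of the 33 members tested, all higher. Of all genes, 7.32% were higher and 20.2% lower by that much. The medians were 0.18 for the members and -0.14 for all genes. The 6 lower members were MAFG, TXNRD1, SRXN1, PRDX1, CBR3 and ABCC1, and 3 remained lower without replicate 1 of the oxamate group: MAFG, SRXN1 and CBR3. This comparison shares its normoxia libraries with the first and its oxamate libraries with the second and the third, and the second shares the hypoxia libraries with the first, so the comparisons are not independent.

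**Figure D1:**
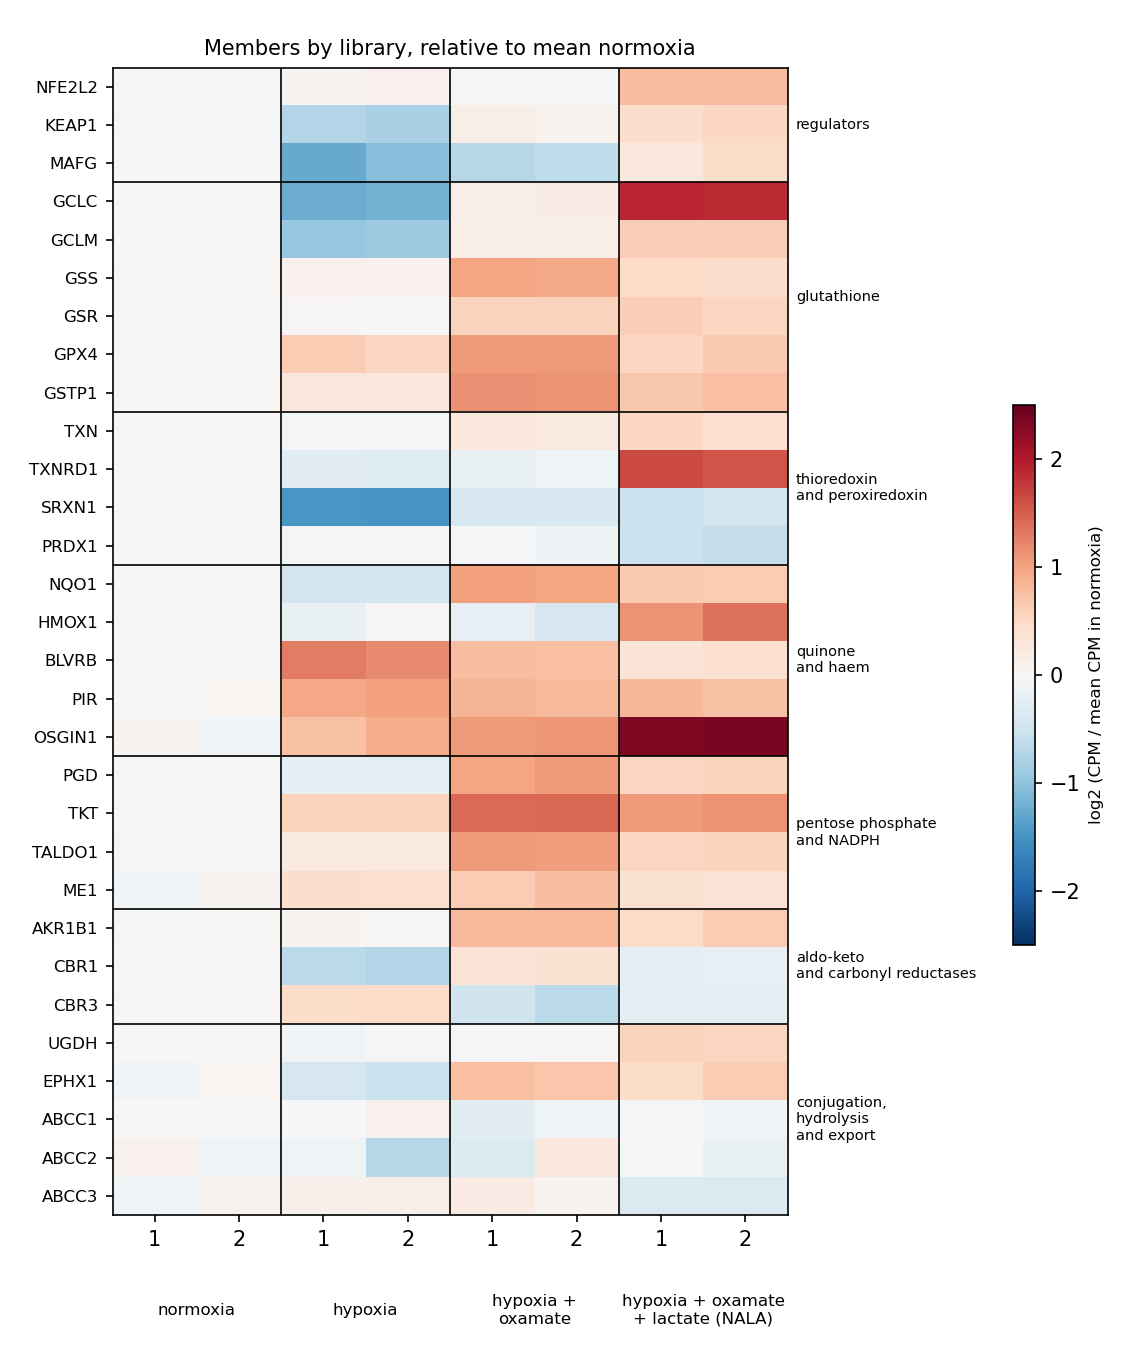
The heat map shows 30 members (mean log2 CPM at or above 1; rows, grouped by role) in the 8 libraries (columns), coloured by the log2 ratio of CPM to the mean CPM in normoxia. The deepest blue cells are SRXN1 in hypoxia, and the deepest red cells are OSGIN1 and GCLC in the libraries with oxamate and NALA.

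**Figure D2:**
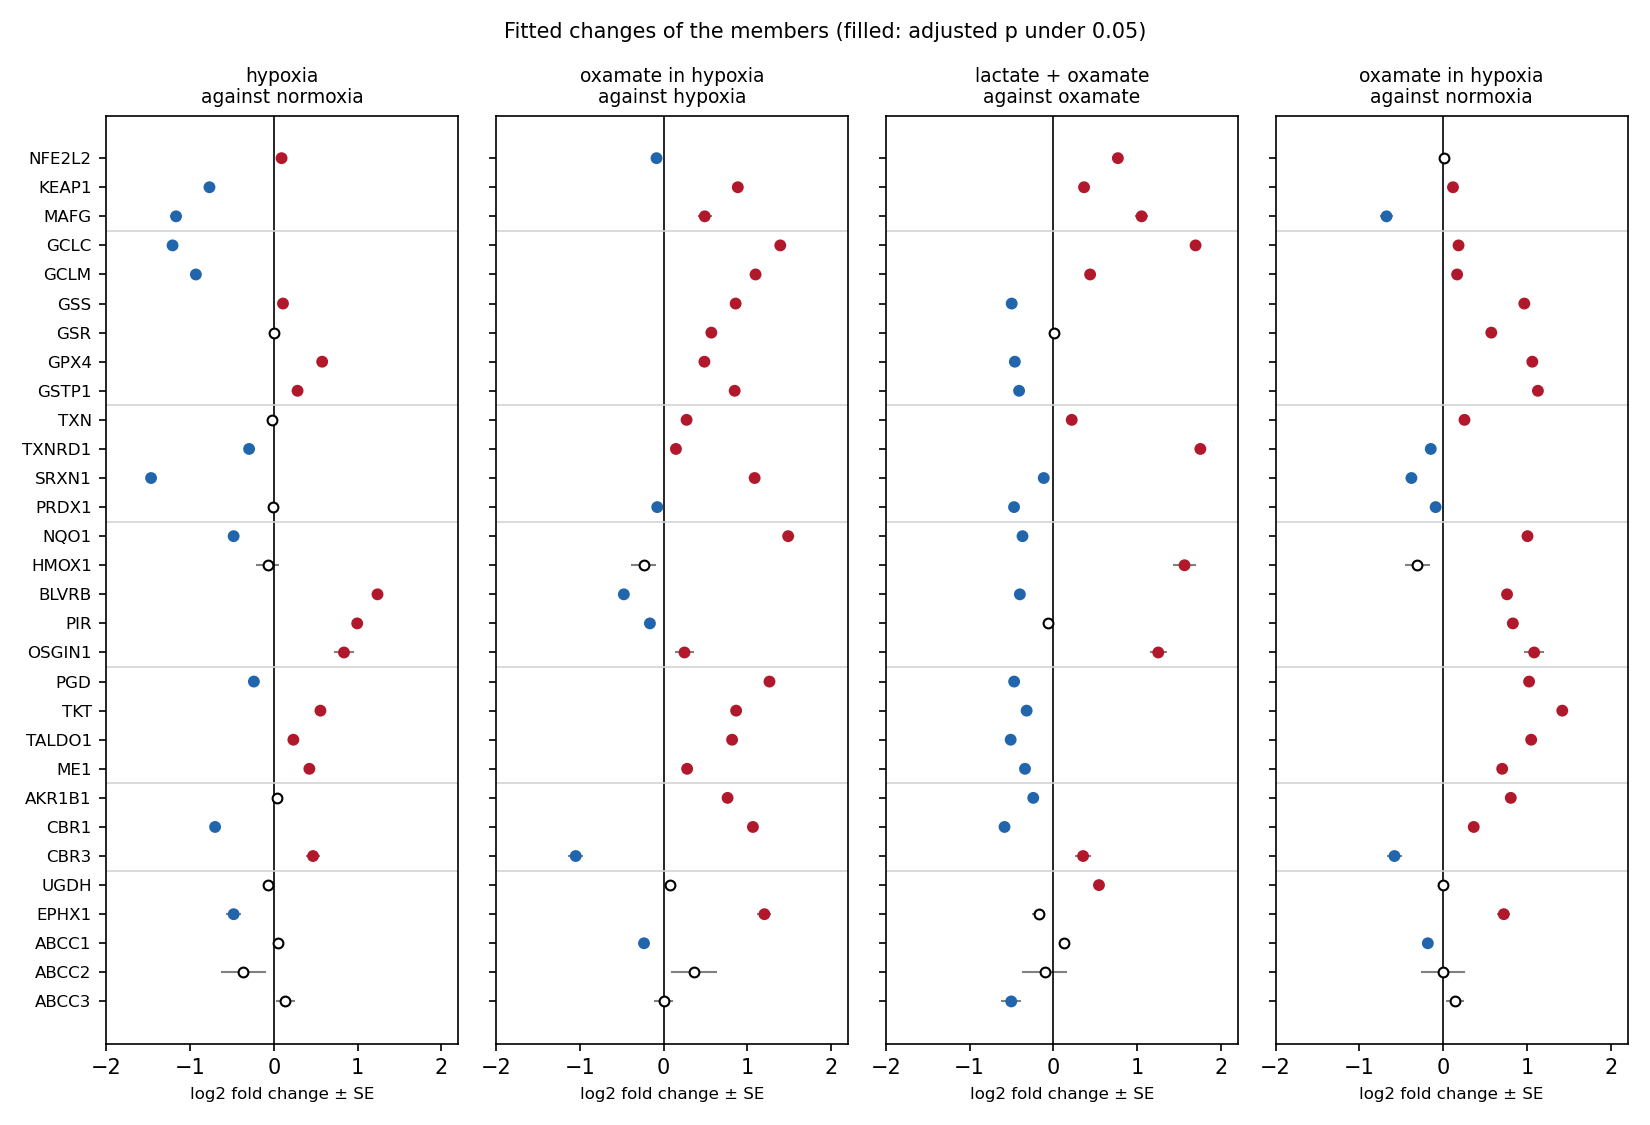
Points are fitted log2 fold changes with standard errors for the same 30 members in the 4 comparisons, filled where the adjusted p was under 0.05, with red for higher and blue for lower. The 4 pentose phosphate and NADPH members lie right of 0 with oxamate in hypoxia and left of 0 when NALA was added.

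The regulators were NFE2L2, its inhibitor KEAP1 and its dimer partner MAFG. NFE2L2 (ENSG00000116044, chr2:177227595-177392697, GRCh38) was at 154 and 151 CPM in normoxia, 160 and 165 in hypoxia, 153 and 154 under oxamate and 262 and 260 under NALA. The NALA libraries stood above the other 6, which lay within 151 to 165 CPM. The increase over oxamate alone was 0.77 ± 0.034 on the log2 scale (fitted change ± SE, 2 libraries per group, edgeR adjusted p = 6.84e-15). The change in hypoxia was 0.09 ± 0.034 (adjusted p = 0.0187) and with oxamate -0.08 ± 0.034 (adjusted p = 0.0277). The first did not pass without either normoxia library (0.10 and 0.08), replicate 2 of hypoxia (0.07) or either oxamate library (0.08 for each), or with DESeq2 (adjusted p = 0.0517). The second did not pass with size factors of DESeq2, and without replicate 2 of hypoxia (-0.06) or without replicates 1 and 2 of oxamate in turn (0.03 and 0.02) it also failed. Against normoxia, the oxamate libraries differed by 0.01 (adjusted p = 0.858), and without replicate 1 of oxamate by 0.11 (adjusted p = 0.0396).

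KEAP1 (chr19:10486120-10503741) was at 75.7 and 73.1 CPM in normoxia and 44.9 and 42.3 in hypoxia, then at 81.8 and 79.4 under oxamate and 101 and 106 under NALA. It was lowest in both hypoxia libraries and highest in both NALA libraries, with no overlap between groups. The change was -0.77 ± 0.048 in hypoxia (edgeR adjusted p = 2.37e-12), 0.89 ± 0.048 with oxamate (adjusted p = 1.32e-13) and 0.37 ± 0.045 with NALA (adjusted p = 2.5e-07). Against normoxia, oxamate libraries were higher by 0.12 ± 0.046 (adjusted p = 0.0259), which did not pass without replicate 1 (0.13) or replicate 2 (0.08) of normoxia. MAFG encodes a small MAF protein without a transactivation domain of its own. Its level was 37.3 and 37.1 CPM in normoxia, 15.5 and 17.7 in hypoxia, 22.7 and 23.9 under oxamate and 44.9 and 51.4 under NALA. The groups did not overlap, and the order ran from hypoxia through oxamate and normoxia to NALA. The fitted changes were -1.17 ± 0.076 in hypoxia, 0.49 ± 0.083 with oxamate and 1.05 ± 0.074 with NALA (edgeR adjusted p = 2.88e-11 for the last). MAFG shares 2.01% of its exon bases with SIRT7 on the same strand, and how such reads were divided is not stated in the labels. NFE2L2 shares 17.6% of its exon bases with AC019080.1 on the same strand, whose level was 0.281% of its own, and 0.903% with AGPS on the opposite strand.

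**Figure D3:**
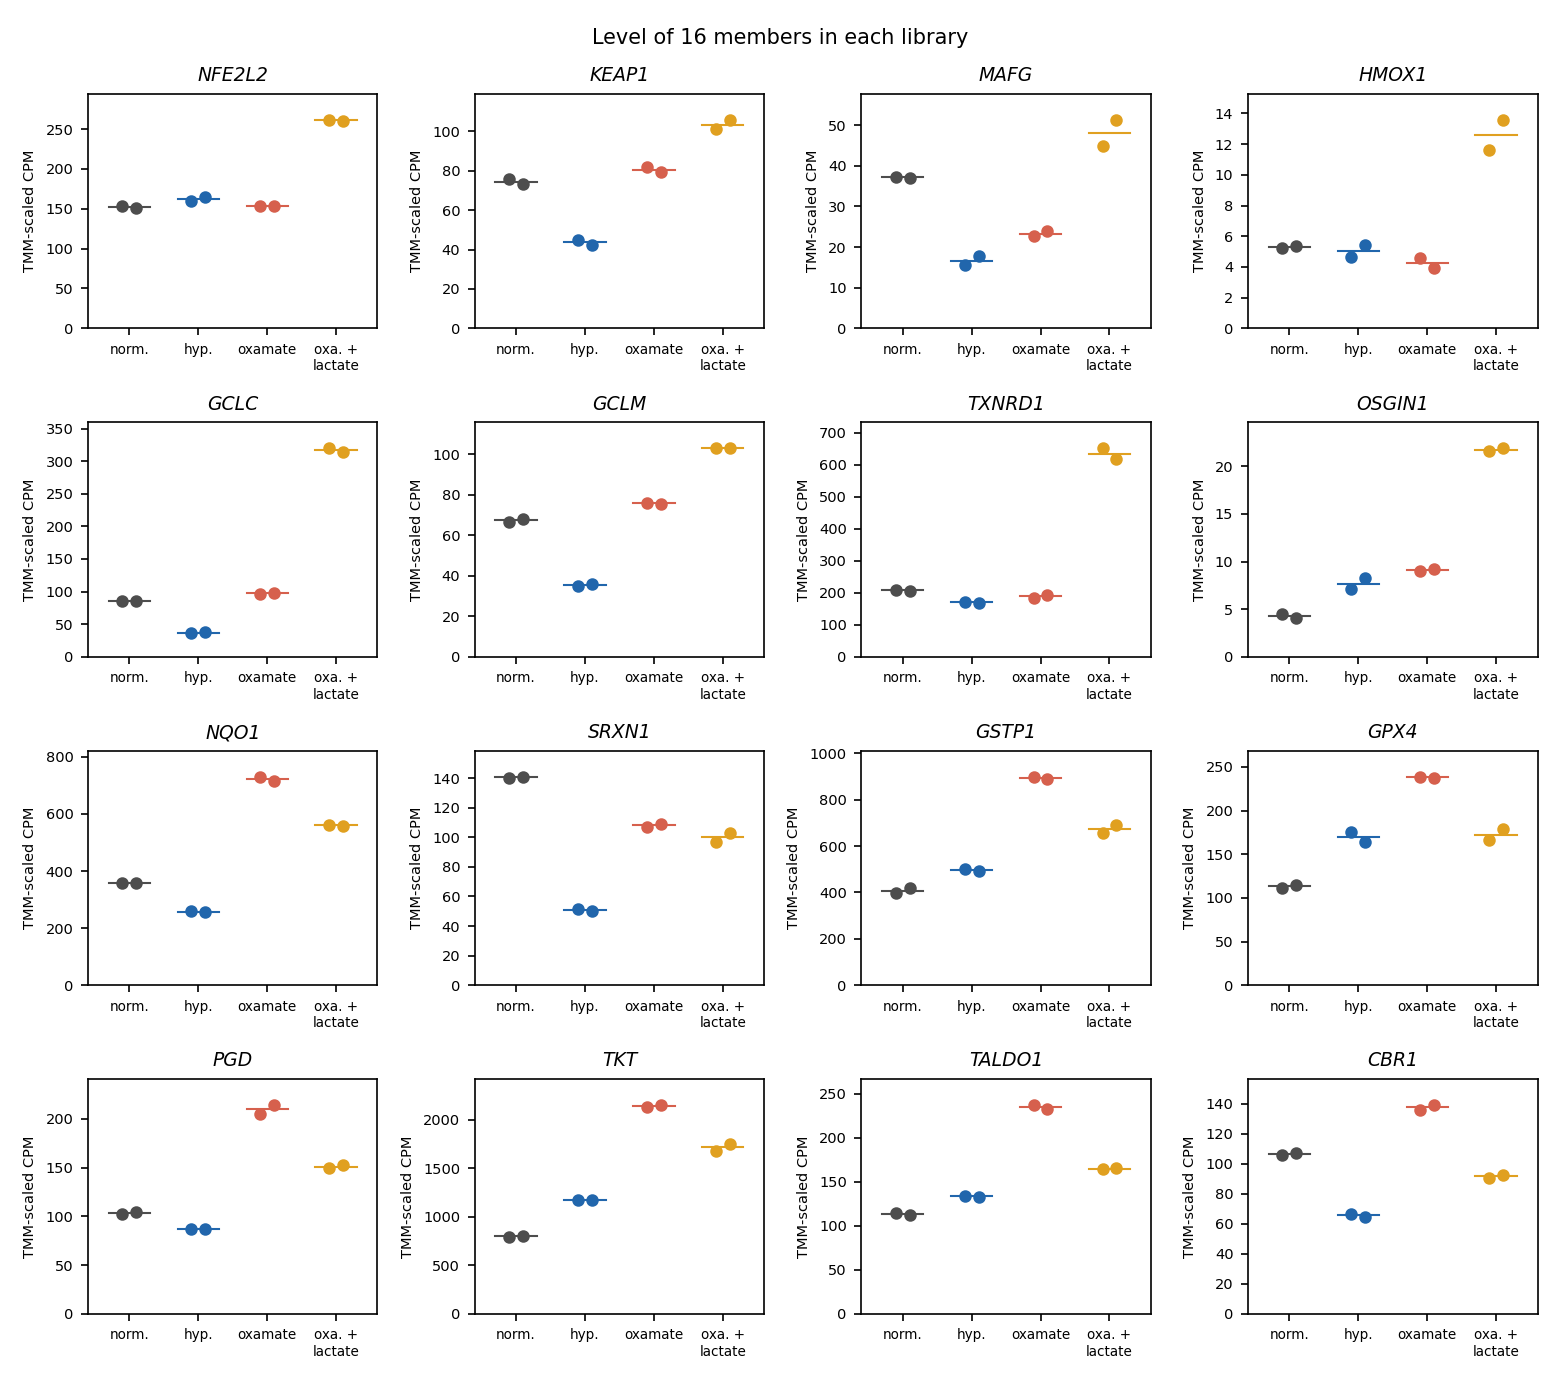
Each panel gives the TMM-scaled CPM of one of 16 members on a linear axis from 0, with a point for each of the 8 libraries and a bar at the group mean of 2, where oxamate and oxa. + lactate stand for the hypoxia groups with oxamate and with oxamate and NALA. NFE2L2, HMOX1, GCLC, TXNRD1 and OSGIN1 are highest in the NALA libraries, and NQO1, GSTP1, GPX4, PGD, TKT, TALDO1 and CBR1 are highest in the oxamate libraries.

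Glutathione members cover its synthesis (GCLC, GCLM, GSS), recycling (GSR), peroxidases (GPX2, GPX4) and a transferase (GSTP1). Of the 7, 3 were higher, 2 lower and 2 did not pass in hypoxia, 6 were higher and 1 lower with oxamate, and 3 were higher, 3 lower and 1 did not pass with NALA. Against normoxia, 6 were higher with oxamate and 1 did not pass. Of all genes, 36.7% were higher and 36.8% lower in hypoxia, and 35.7% and 44.8% with oxamate. With NALA these shares were 33.2% and 31.7%, and for oxamate against normoxia 31.9% and 40.1%. GCLC (ENSG00000001084, chr6:53497341-53616970) encodes the catalytic subunit of glutamate-cysteine ligase, the rate-limiting enzyme of glutathione synthesis. Its level was 85.6 and 86.3 CPM in normoxia, 36.4 and 38.0 in hypoxia, 97.0 and 98.4 under oxamate and 320 and 314 under NALA. No group overlapped another. The changes were -1.21 ± 0.043 in hypoxia (edgeR adjusted p = 9.59e-17), 1.39 ± 0.043 with oxamate and 1.70 ± 0.037 with NALA (adjusted p = 4.51e-20). GCLM (chr1:93885205-93909456), the modifier subunit, was at 66.7 and 68.2 CPM in normoxia, 34.9 and 35.9 in hypoxia, 76.0 and 75.4 under oxamate and 103 and 103 under NALA. The order of its groups was that of GCLC, and its changes were -0.93 ± 0.046, 1.10 ± 0.047 and 0.44 ± 0.043 in turn. Both subunits rose with NALA, GCLC by 1.70 and GCLM by 0.44, and no test set the changes of these genes against each other.

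Of the other glutathione enzymes, GPX4, GSTP1 and GSS were higher with oxamate than in hypoxia and lower with NALA than with oxamate. GSR was level between oxamate and NALA, and GPX2 was lower with oxamate than in hypoxia or with NALA. GPX4, which reduces lipid hydroperoxides, was at 112 and 115 CPM in normoxia, 176 and 164 in hypoxia, 239 and 237 under oxamate and 166 and 179 under NALA. The oxamate libraries were above the rest, and the hypoxia and NALA libraries overlapped. It rose by 0.58 ± 0.042 in hypoxia and 0.49 ± 0.04 with oxamate and fell by 0.46 ± 0.041 on the log2 scale with NALA. GSTP1, the glutathione S-transferase of pi class, was at 398 and 417 CPM in normoxia, 499 and 493 in hypoxia, 899 and 888 under oxamate and 654 and 691 under NALA. It was lowest in normoxia and highest with oxamate, with changes of 0.28 ± 0.032, 0.85 ± 0.031 and -0.41 ± 0.031 in hypoxia, with oxamate and with NALA. GSS, the synthetase of the last step, rose with oxamate (0.86) and fell by 0.50 on the log2 scale with NALA. Its change in hypoxia, 0.11 (edgeR adjusted p = 0.0158), did not pass without replicate 1 of normoxia (0.07) or without either hypoxia library (0.11 for each). GSR, the reductase that restores glutathione with NADPH, rose with oxamate (0.57) and was at 175 CPM in both oxamate libraries and at 180 and 170 in the NALA libraries. GPX2, a gastrointestinal peroxidase, was close to the detection limit with 34 counts in normoxia, 58 in hypoxia, 25 with oxamate and 49 with NALA over both libraries. Its ratio of oxamate to normoxia was 0.851 (95% Clopper-Pearson interval of counting error, 0.487 to 1.47), and the libraries of these groups overlapped. Its ratio of oxamate to hypoxia was 0.495 (0.297 to 0.804), and its ratio of NALA to oxamate was 2.24 (1.36 to 3.79). The edgeR calls on it (adjusted p = 0.0383 and 0.0284) were not made with DESeq2 (adjusted p = 0.167 and 0.133). The oxamate call of GPX2 also failed without replicate 1 of hypoxia (-0.77), replicate 1 of oxamate (-1.19) or replicate 2 of oxamate (-0.68). Its NALA call failed without replicate 1 (1.33) or 2 (0.82) of oxamate or replicate 2 of NALA (0.81).

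The thioredoxin system passes electrons from NADPH through TXNRD1 to thioredoxin (TXN) and on to peroxiredoxins such as PRDX1, and SRXN1 repairs overoxidized peroxiredoxins. TXNRD1 (ENSG00000198431, chr12:104215779-104350305) was at 210 and 207 CPM in normoxia, 171 and 169 in hypoxia, 183 and 194 under oxamate and 652 and 617 under NALA. The NALA libraries were far above the other 6, which lay within 169 to 210 CPM. With NALA the change was 1.75 ± 0.036 (edgeR adjusted p = 1.61e-20), after -0.30 ± 0.036 in hypoxia and 0.15 ± 0.037 with oxamate. Against normoxia, oxamate libraries were lower by 0.15 ± 0.036 on the log2 scale, and this call did not pass with the size factors of DESeq2 (-0.06) or without replicate 1 (-0.01) or 2 (-0.10) of oxamate. SRXN1 (chr20:646615-653370) was at 140 and 141 CPM in normoxia, 51.4 and 50.4 in hypoxia, 107 and 109 under oxamate and 96.8 and 103 under NALA. It was highest in normoxia and lowest in hypoxia, and the groups did not overlap. It was 2.76-fold lower in hypoxia (-1.47 ± 0.042) and rose by 1.09 ± 0.043 with oxamate. The NALA change of -0.12 ± 0.041 (edgeR adjusted p = 0.0186) did not pass without replicate 1 of NALA (-0.07). SRXN1 shares 85.0% of its exon bases with the gene model AL121758.1 on the same strand, which was listed at 0. TXN and PRDX1 did not pass in hypoxia, with changes of -0.02 and -0.01. TXN rose by 0.27 with oxamate and 0.22 with NALA, and the latter was 0.03 under upper quartile scaling. PRDX1 went from 427 and 405 CPM under oxamate to 307 and 295 under NALA, a change of -0.47 ± 0.033. PRDX1 changed by -0.08 with oxamate and by -0.09 against normoxia. Neither of these was kept with the size factors of DESeq2 (0.01 and -0.01). Without replicate 2 of oxamate they were 0.07 and 0.04. The first also failed without replicate 1 (-0.08) or 2 (-0.07) of hypoxia or replicate 1 of oxamate (-0.01), and the second without replicate 2 of normoxia (-0.09) or replicate 1 of oxamate (-0.03).

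Levels were also divided by the kilobases of annotated exon, merged over all transcripts of a gene. That length is not that of the expressed transcript and was 9507 bases for TKT and 1142 for TXN. The order of genes on this scale therefore depends on the annotation. TXN was the highest member in normoxia with 317 CPM per kilobase. It was followed by PRDX1 with 291, GSTP1 with 214, NQO1 with 111 and TKT with 84.0. With oxamate the order was GSTP1 with 467, TXN with 377, PRDX1 with 273, TKT with 225 and NQO1 with 222. TKT and NQO1 were not compared by a test. KEAP1 was at 19.8 CPM per kilobase in normoxia and NFE2L2 at 25.6, and with NALA they were at 27.7 and 43.7.

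Quinone and haem members include NQO1, which reduces quinones with electrons from NADPH or NADH, and HMOX1 and BLVRB, which degrade haem and reduce biliverdin. NQO1 (ENSG00000181019, chr16:69706996-69726951) was at 359 and 360 CPM in normoxia, 259 and 257 in hypoxia, 731 and 715 under oxamate and 563 and 557 under NALA. It was lowest in hypoxia and highest with oxamate, and no groups overlapped. Its changes were -0.48 ± 0.029 in hypoxia, 1.49 ± 0.029 with oxamate (edgeR adjusted p = 1.7e-21) and -0.37 ± 0.028 with NALA. HMOX1 was at 5.25 and 5.34 CPM in normoxia, 4.65 and 5.42 in hypoxia, 4.57 and 3.96 under oxamate and 11.6 and 13.6 under NALA. The NALA libraries lay above all others, and the normoxia and hypoxia libraries overlapped. It was 2.96-fold higher with NALA than with oxamate alone (1.57 ± 0.14, edgeR adjusted p = 1.17e-09) and did not pass in hypoxia (-0.07, adjusted p = 0.649) or with oxamate (-0.24, adjusted p = 0.149). BLVRB was at 27.5 and 27.1 CPM in normoxia, 66.3 and 62.2 in hypoxia, 46.5 and 46.0 under oxamate and 34.2 and 35.8 under NALA. Unlike NQO1 it was highest in hypoxia, where it rose by 1.24 ± 0.054, and it fell by 0.47 ± 0.052 with oxamate and by 0.40 ± 0.057 with NALA on the log2 scale. OSGIN1, an oxidative stress-induced growth inhibitor, was at 4.50 and 4.11 CPM in normoxia, 7.13 and 8.24 in hypoxia, 9.02 and 9.22 under oxamate and 21.6 and 21.9 under NALA. Each group was above the one before it in that order. It changed by 0.84 ± 0.12 in hypoxia and 1.25 ± 0.099 with NALA. OSGIN1 shares 13.9% of its exon bases with the protein-coding AC009119.2 on the same strand, whose level was not available. The change of OSGIN1 with oxamate, 0.25 ± 0.11 (edgeR adjusted p = 0.0412), did not pass without replicate 1 of hypoxia (0.15), without either normoxia library (0.24 for each) or without replicate 2 of NALA (0.24). PIR, a nuclear iron-binding protein, rose in hypoxia (0.99) and stayed between 36.2 and 44.7 CPM in all 6 hypoxic libraries. Its oxamate change of -0.16 (edgeR adjusted p = 0.0145) failed without replicate 2 of hypoxia (-0.13) or replicate 1 (-0.08) or 2 (-0.04) of oxamate.

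The pentose phosphate and NADPH members moved together with oxamate and with NALA. All 4 were higher with oxamate than in hypoxia, all 4 were lower with NALA than with oxamate, and all 4 were higher with oxamate than in normoxia. In hypoxia 3 were higher and PGD was lower. Of all genes, 35.7% were higher with oxamate than in hypoxia and 31.7% lower with NALA than with oxamate. For oxamate against normoxia 31.9% were higher, and in hypoxia 36.7% were higher and 36.8% lower. PGD (ENSG00000142657, chr1:10398592-10420144), an NADPH-producing dehydrogenase of the oxidative branch, was at 102 and 104 CPM in normoxia, 87.2 and 87.4 in hypoxia, 205 and 214 under oxamate and 149 and 153 under NALA. TKT (ENSG00000163931, chr3:53224707-53256052), the transketolase of the non-oxidative branch, was at 796 and 802 CPM in normoxia, 1177 and 1173 in hypoxia, 2129 and 2152 under oxamate and 1678 and 1752 under NALA. TALDO1, the transaldolase of the same branch, was at 115 and 112 CPM in normoxia, 134 and 133 in hypoxia, 237 and 233 under oxamate and 164 and 166 under NALA. In each of these genes the oxamate libraries were the highest and the NALA libraries the next, with no overlap between groups. With oxamate the changes were 1.26 ± 0.038 for PGD, 0.87 ± 0.027 for TKT and 0.82 ± 0.034 for TALDO1. With NALA they were -0.47 ± 0.037, -0.32 ± 0.027 and -0.51 ± 0.034. In hypoxia they were -0.24 ± 0.039 for PGD, 0.56 ± 0.027 for TKT and 0.23 ± 0.035 for TALDO1. ME1, the cytosolic malic enzyme that also makes NADPH, ranged from 25.7 to 46.6 CPM over the 8 libraries and changed by 0.42, 0.28 and -0.34 in the same comparisons. PGD shares 4.16% of its 50-base words with the pseudogene PGDP1.

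Among the carbonyl and aldo-keto reductases, the neighbouring paralogs CBR1 and CBR3 on chromosome 21 moved in opposite directions in hypoxia, with oxamate and with NALA. CBR1 was at 106 and 107 CPM in normoxia, 66.7 and 64.5 in hypoxia, 136 and 139 under oxamate and 90.5 and 92.7 under NALA. CBR3 was at 15.3 and 15.9 CPM in normoxia, 21.5 and 21.8 in hypoxia, 11.1 and 9.79 under oxamate and 13.4 and 13.3 under NALA. CBR1 was lowest where CBR3 was highest, in hypoxia, and highest where CBR3 was lowest, with oxamate. The changes of CBR1 were -0.70 ± 0.041 in hypoxia, 1.07 ± 0.04 with oxamate and -0.58 ± 0.04 with NALA, and those of CBR3 were 0.47 ± 0.08, -1.05 ± 0.086 and 0.35 ± 0.095. The last, for CBR3 (edgeR adjusted p = 0.00236), did not pass without replicate 2 of oxamate (0.17), with upper quartile scaling (0.16) or with DESeq2 (0.30). CBR3 shares 42.2% of its exon bases with the antisense gene CBR3-AS1, and since use of the strand in counting is not given, their reads cannot be told apart. AKR1B1, the aldose reductase, rose with oxamate (0.76), fell by 0.24 on the log2 scale with NALA and did not pass in hypoxia (0.04). AKR1B10 had 36 counts in normoxia, 18 in hypoxia, 35 with oxamate and 26 with NALA. Its one call, with oxamate (1.15 ± 0.52, edgeR adjusted p = 0.0469), had a ratio of 2.23 (95% counting interval 1.23 to 4.19). Leaving out any one of 6 libraries ended that call, with 0.67 without replicate 2 of oxamate, 0.84 and 1.53 without replicates 1 and 2 of hypoxia, 1.14 without either normoxia library and 1.14 without replicate 2 of NALA.

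The AKR1C genes, ketosteroid reductases that are among the most inducible NRF2 targets in many epithelial cells, were close to absent in these libraries. AKR1C1 and AKR1C2 did not pass the filter on low counts, with at most 5 and 3 counts in a library. AKR1C3 had 3 and 0 counts in normoxia, 15 and 12 in hypoxia, 0 and 0 under oxamate and 7 and 1 under NALA. It passed the filter only through its level in hypoxia, so neither its call as higher there nor its call as lower with oxamate is independent support, although both stand in the counts of members above. Its ratio of hypoxia to normoxia was 9.07 (95% counting interval 2.79 to 46.7), and with oxamate it was at least 7.84-fold lower than in hypoxia, taking 3 counts over the group as the floor. With NALA it was at least 3.05-fold higher than with oxamate alone on the same floor, and 7 of its 8 counts were in one library. The hypoxia call failed without replicate 2 of normoxia (adjusted p = 0.131) or replicate 1 of hypoxia (adjusted p = 0.0609), and the NALA call without replicate 1 (adjusted p = 0.109) or 2 (adjusted p = 0.103) of oxamate or replicate 1 of NALA (adjusted p = 0.304), all by edgeR. AKR1C1 shares 28.6% and AKR1C2 38.9% of their 50-base words with other genes, mostly with each other, so reads may be divided between them.

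The last group of members serves conjugation, hydrolysis and export. In hypoxia 1 of 5 was lower and 4 did not pass. With oxamate, and also with NALA, 1 was higher, 1 lower and 3 did not pass. The passing shares were 20%, 40% and 40% in turn, beside 73.5%, 80.5% and 64.9% of all genes. EPHX1, the microsomal epoxide hydrolase, was at 16.7 and 18.1 CPM in normoxia, 13.0 and 12.0 in hypoxia, 29.5 and 28.1 under oxamate and 23.8 and 27.0 under NALA. It was lowest in hypoxia and highest with oxamate, changing by -0.48 ± 0.087 and then by 1.20 ± 0.083. Its NALA change, -0.18 (edgeR adjusted p = 0.0528), passed when replicate 1 (-0.24) or 2 (-0.31) of oxamate or replicate 2 of NALA (-0.26) was left out. UGDH, which makes the glucuronic acid donor, was at 59.1 to 64.1 CPM in 6 libraries and at 92.7 and 90.8 with NALA, a change of 0.54 ± 0.045 (edgeR adjusted p = 3.58e-10). The oxamate change of UGDH, 0.07 (adjusted p = 0.15), passed without replicate 1 (0.21) or 2 (0.15) of oxamate. Among the export pumps, ABCC1 ranged from 48.5 to 62.6 CPM, ABCC3 from 6.15 to 9.10 and ABCC2 from 1.37 to 2.71. ABCC1 was lower with oxamate than in hypoxia (-0.23) and than in normoxia (-0.18), and without replicate 1 of oxamate these values were -0.05 and -0.01. ABCC3 was lower with NALA (-0.50, edgeR adjusted p = 0.00116), and ABCC2 passed in no comparison, though without replicate 1 of oxamate its oxamate change was 0.75 (adjusted p = 0.0311).

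Beyond the members, 92 other genes of these pathways in 5 lists were examined, of which 77 were tested. In hypoxia 32 were higher and 32 lower, with oxamate 32 and 33, and with NALA 23 and 43. Against normoxia, 44 were higher and 24 lower with oxamate. Their passing shares were 83.1%, 84.4%, 85.7% and 88.3% in hypoxia, with oxamate, with NALA and for oxamate against normoxia, beside 73.5%, 80.5%, 64.9% and 72.0% of all genes. Of all genes, 36.7% were higher and 36.8% lower in hypoxia, 35.7% higher and 44.8% lower with oxamate, and 33.2% higher and 31.7% lower with NALA, and the lists below are to be read against these shares.

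Of 14 partners and controllers of NRF2 tested, 4 were higher, 6 lower and 4 did not pass in hypoxia, a passing share of 71.4% beside 73.5% of all genes. With oxamate 5 were higher and 9 lower (35.7% and 64.3%, beside 35.7% and 44.8% of all genes), and with NALA 11 were higher and 3 lower (78.6% and 21.4%, beside 33.2% and 31.7%). CUL3 (ENSG00000036257, chr2:224470150-224585397), the scaffold of the ligase that KEAP1 serves, was at 108 and 101 CPM in normoxia, 62.1 and 61.9 in hypoxia, 7.86 and 7.85 under oxamate and 51.7 and 52.0 under NALA. The oxamate libraries were far below all others. CUL3 changed by -0.75 ± 0.045 in hypoxia, -2.98 ± 0.067 with oxamate (edgeR adjusted p = 2.01e-20) and 2.72 ± 0.071 with NALA (adjusted p = 8.14e-19). BTRC, the substrate receptor of another ligase that acts on NRF2, was at 31.0 and 30.9 CPM in normoxia, 26.4 and 26.9 in hypoxia, 8.71 and 7.97 under oxamate and 20.6 and 20.4 under NALA. It too was lowest with oxamate, by -1.67 ± 0.081 against hypoxia. SQSTM1, the autophagy receptor p62 that binds KEAP1, was at 470 and 476 CPM in normoxia, 375 and 367 in hypoxia, 716 and 709 under oxamate and 1398 and 1483 under NALA. It was lowest in hypoxia and highest with NALA, and it rose by 0.94 ± 0.031 with oxamate. SQSTM1 shares 20.7% of its exon bases with MRNIP on the opposite strand.

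The small MAF genes other than MAFG and the competitor BACH1 were high in hypoxia and highest with NALA. MAFF was at 10.8 and 11.9 CPM in normoxia, 40.3 and 37.2 in hypoxia, 12.4 and 12.5 under oxamate and 52.5 and 57.5 under NALA. It changed by 1.77 ± 0.076, -1.64 ± 0.077 and 2.15 ± 0.076 in hypoxia, with oxamate and with NALA. MAFK was at 38.8 and 40.5 CPM in normoxia, 84.6 and 88.6 in hypoxia, 54.1 and 53.7 under oxamate and 205 and 225 under NALA, with changes of 1.13 ± 0.051 in hypoxia and 2.00 ± 0.048 with NALA. While MAFG fell in hypoxia, MAFF and MAFK rose there, and all of them rose with NALA. BACH1, a repressor that occupies the same elements and is released by haem, was at 25.7 and 25.9 CPM in normoxia, 63.2 and 67.0 in hypoxia, 30.0 and 27.0 under oxamate and 93.2 and 88.9 under NALA. It rose by 1.34 ± 0.057 in hypoxia. RBX1, the RING subunit of the CUL3 ligase, fell by 1.19 ± 0.083 on the log2 scale with NALA. MAFK shares 18.1% of its exon bases with TMEM184A on the opposite strand.

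**Figure D4:**
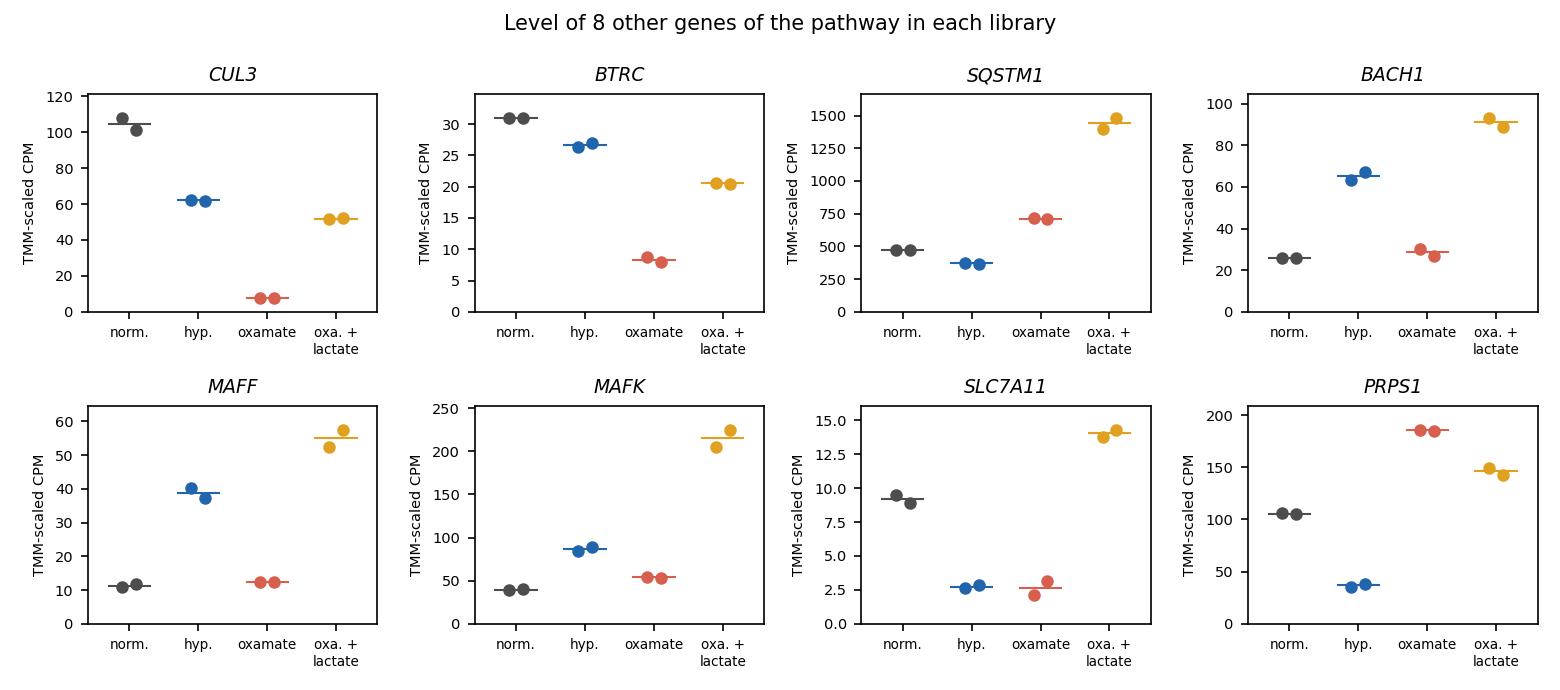
Each panel gives the TMM-scaled CPM of one of 8 other genes of the pathway on a linear axis from 0, with a point per library and a bar at the group mean, where oxamate and oxa. + lactate stand for the hypoxia groups with oxamate and with oxamate and NALA. CUL3 and BTRC are lowest in the oxamate libraries, and SQSTM1, BACH1, MAFF, MAFK and SLC7A11 are highest in the NALA libraries. PRPS1 is highest in the oxamate libraries, at 186 and 185 CPM.

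Other glutathione genes tested numbered 15 of 26, with 4 higher and 8 lower in hypoxia, 9 higher and 3 lower with oxamate and 2 higher and 9 lower with NALA. The shares with NALA were 13.3% higher and 60% lower, beside 33.2% and 31.7% of all genes. Among the 9 lower with NALA, MGST2 changed by -0.71 ± 0.1, GSTK1 by -0.64 ± 0.039 and GGCT by -0.64 ± 0.047. SLC7A11 (chr4:138164097-138242349), the cystine carrier that supplies cysteine for glutathione, was at 9.52 and 8.88 CPM in normoxia, 2.61 and 2.85 in hypoxia, 2.13 and 3.12 under oxamate and 13.8 and 14.3 under NALA. The hypoxia and oxamate libraries overlapped, and the NALA libraries were the highest. It changed by -1.75 ± 0.15 in hypoxia and 2.43 ± 0.15 with NALA. Its partner chain SLC3A2, which also serves other carriers, was at 780 and 798 CPM in normoxia, 644 and 636 in hypoxia, 1602 and 1572 under oxamate and 1579 and 1653 under NALA, and rose by 1.31 ± 0.029 with oxamate. GPX1, the common cytosolic peroxidase, was higher with oxamate than in normoxia (1.20 ± 0.034).

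The remaining enzymes of the pentose phosphate pathway did not move as one. In hypoxia 6 of 10 tested were higher and 4 lower, with oxamate 5 were higher and 4 lower, and with NALA 1 was higher and 8 lower, the lower share being 80% beside 31.7% of all genes. PGLS, the lactonase of the oxidative branch, was at 34.3 and 35.2 CPM in normoxia, 52.8 and 51.7 in hypoxia, 62.9 and 66.5 under oxamate and 39.0 and 46.7 under NALA. Its oxamate libraries were the highest and its normoxia libraries the lowest, with changes of 0.59 ± 0.064 in hypoxia, 0.31 ± 0.061 with oxamate and -0.59 ± 0.065 with NALA. It shares 9.17% of its exon bases with a lincRNA on the opposite strand, whose level was 2.4% of its own. PRPS1, which makes phosphoribosyl pyrophosphate from ribose phosphate, fell by 1.52 ± 0.046 in hypoxia on the log2 scale and rose by 2.33 ± 0.045 with oxamate, from 35.2 and 38.4 CPM in hypoxia to 186 and 185. PRPS2, which catalyzes the same step, rose by 0.25 ± 0.037 in hypoxia and by 0.58 ± 0.036 with oxamate, from 181 and 187 CPM in hypoxia to 279 and 270.0. RPIA, the ribose phosphate isomerase, was the one enzyme of the list that rose with NALA, by 0.47 ± 0.059. RBKS, H6PD and DERA, which lie outside the main route, were lower with oxamate. RBKS, the ribokinase, was at 1.79 and 1.58 CPM in normoxia, 18.2 and 19.0 in hypoxia and 2.44 and 2.59 under oxamate, a change of 3.47 ± 0.14 and then of -2.88 ± 0.14. H6PD, the dehydrogenase of the endoplasmic reticulum, changed by 1.26 ± 0.073 and -2.36 ± 0.083 in the same comparisons. DERA, the deoxyribose phosphate aldolase, fell by 1.70 ± 0.052 on the log2 scale with oxamate. RBKS shares 3.4% of its exon bases with BABAM2 on the opposite strand, whose level was 806% of its own.

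Of the peroxiredoxin, thioredoxin, superoxide dismutase and catalase genes, 18 were tested, with 8 higher and 6 lower in hypoxia, 9 higher and 7 lower with oxamate and 3 higher and 14 lower with NALA. The shares with NALA were 16.7% higher and 77.8% lower, beside 33.2% and 31.7% of all genes. Among the 14 lower with NALA, TXNRD3 changed by -1.02 ± 0.11 and MSRB1 by -0.94 ± 0.1. PRDX2 (1.18 ± 0.034) and CAT (1.12 ± 0.048), which remove hydrogen peroxide, rose in hypoxia, and SOD2, the mitochondrial superoxide dismutase, fell by 0.75 ± 0.045 on the log2 scale. PRDX6 rose by 1.03 ± 0.03 with oxamate. SESN1, a sestrin, was at 10.0 and 9.04 CPM in normoxia, 16.4 and 19.6 in hypoxia, 1.86 and 1.86 under oxamate and 11.6 and 12.1 under NALA. Its level was lowest with oxamate, with changes of -3.27 ± 0.14 against hypoxia and 2.67 ± 0.15 with NALA. Of the other reported NRF2 targets, 20 were tested, with 10 higher and 8 lower in hypoxia, 4 higher and 10 lower with oxamate and 6 higher and 9 lower with NALA, where the shares were 30% and 45% beside the same 33.2% and 31.7%. The ferritin subunits FTH1 and FTL, which store iron, rose in hypoxia by 1.36 ± 0.1 and 1.29 ± 0.033 and again with NALA by 0.68 ± 0.1 and 0.49 ± 0.032. FTL was at 321 and 325 CPM in normoxia, 805 and 778 in hypoxia, 786 and 750 under oxamate and 1052 and 1111 under NALA. With oxamate 20% of this list were higher and 50% lower, beside 35.7% and 44.8% of all genes. The drug exporter ABCG2 fell by 1.35 ± 0.076 on the log2 scale in hypoxia and was among the 4 higher with oxamate (1.60 ± 0.076). Among the 10 lower with oxamate were PANX2 (-2.02 ± 0.23), SLC7A5 (-1.25 ± 0.029) and TRIM16L (-0.83 ± 0.044). TRIM16L, a tripartite motif gene, rose by 1.21 ± 0.045 with NALA.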

How the data were processed

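RNA was measured as raw counts per gene, which the authors deposited as whole numbers for 61517 genes in 8 libraries. Per the submitters' processing notes, the build was GRCh38 (hg38) and the tools, with no role named, were STAR 2.7.8a, RSEM 1.3.3 and FastQC 0.11.9, so the counts may be rounded RSEM estimates. Annotation release and strand use are not stated there. Depth was 21845676 to 29406061 counts per library, and floors and intervals cover counting error only.

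Groups came from the labels. After filterByExpr at a minimum count of 10, which kept 15554 genes, the counts were scaled by TMM and fitted with edgeR 4.0.16 (R 4.3.3) as 1 robust quasi-likelihood model of 4 group means with 4 residual degrees of freedom, with all groups sharing one spread. Two-sided p-values received the Benjamini-Hochberg adjustment across those genes, with a threshold of 0.05, and standard errors were derived from the F statistic. On simulated counts for hypoxia against normoxia (14847 genes), 74.2% of the 62 genes changed 2-fold were recovered. Of 168 calls 20 were false, a larger share than the threshold of 0.05. Few genes were changed in the simulation, whereas most genes passed in the data, so these rates do not carry over to the data. DESeq2 1.42.0, other scalings and filters, a replicate block, fits limited to the groups compared and omission of each library were the alternatives.

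The members and lists were chosen with earlier results of these data known. Values per library are given for the 3 regulators and for each member past the threshold with at least a 2-fold change in any comparison and a mean log2 CPM of at least 1. From each list of other genes, up to 3 with the largest change per direction and comparison could be named. One gene of those lists and one of the marker lists are not reported here and stand in no count over a list. Positions, exon bases and exon sharing follow GENCODE release 29 on GRCh38, and promoters follow RefSeq.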

Additional observations from a re-analysis of the deposited data

How the results depend on the processing

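Of the values of single members under the alternatives, 1795 kept direction and side of the threshold, 89 no longer passed, 22 came to pass and 60 changed sign. For the 19 members given per library, 897 of 900 values stayed on their side where the change was at least 0.3, and the other 3 were the NALA change of CBR3. For named genes outside the set, an extension chosen after seeing the data, 1718 values kept their side and 7 did not pass. Apart from the regulators, the genes of both sets were chosen for large changes in the main fit. Refits of the same libraries could move few such values across the threshold, so these counts are not independent support. Precision was limited by 2 libraries per group and, for AKR1C1, AKR1C2, AKR1C3, AKR1B10 and GPX2, by few counts. Stricter filtering shifted the median of all genes by 0.16 (oxamate against hypoxia), 0.13 (oxamate against normoxia) and -0.11 (NALA), and upper quartile scaling by 0.11 in hypoxia.

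Members lower with oxamate than in hypoxia numbered 8, against 4 with the size factors of DESeq2 (RLE), 4 with the stricter filter, 3 with DESeq2 and 5 in the fit of these groups alone. Leaving out a library gave 3 to 8. Members lower with oxamate than in normoxia numbered 6, against 3 with RLE, the stricter filter or DESeq2, and leaving out a library gave 3 to 6. The cause was not tested.

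The sign of the log2 change turned for members that did not pass or passed narrowly. In hypoxia, upper quartile scaling gave TXN 0.09, PRDX1 0.09, HMOX1 0.03 and UGDH 0.04, no filter gave GSR -0.01, and the stricter filter gave TXN and PRDX1 0.03. Leaving out each library in turn gave GSR -0.02 to 0.02, HMOX1 -0.19 to 0.03 and ABCC1 -0.01 to 0.10. With oxamate against hypoxia, RLE gave PRDX1 0.01 and ABCC3 0.08, DESeq2 the same values, the stricter filter ABCC3 0.03, and the fit of these groups alone NFE2L2 0.02, PRDX1 0.03 and ABCC3 0.10. Leaving out each library gave NFE2L2 -0.10 to 0.03, PRDX1 -0.09 to 0.07 and ABCC3 -0.01 to 0.17. With NALA, GSR was -0.05 with RLE and DESeq2, -0.19 with upper quartile scaling and -0.12 with the stricter filter, and ABCC1 was -0.07 with upper quartile scaling. Leaving out each library gave GSR -0.10 to 0.05, ABCC1 -0.06 to 0.15, AKR1B10 -0.77 to 0.23, ABCC2 -0.48 to 0.13 and PIR -0.18 to 0. With oxamate against normoxia, ABCC2 was 0.08 with RLE, the stricter filter, DESeq2 and the fit of these groups alone and 0.03 with upper quartile scaling, and no filter gave NFE2L2 -0.03 and UGDH -0.04. Leaving out each library gave AKR1C3 -4.58 to 0, UGDH -0.02 to 0.13, ABCC2 -0.24 to 0.37, NFE2L2 -0.02 to 0.11, GPX2 -0.57 to 0.26, PRDX1 -0.11 to 0.04 and AKR1B10 -0.30 to 0.70.

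Deviations from the group means showed no pairing by replicate number, with correlations of -0.0502 to 0.0118 between same-numbered libraries. Counting error is part of these deviations, so the check cannot exclude a shared culture day or batch. With the replicate number as a block, AKR1B10 with oxamate no longer passed (1.13, edgeR adjusted p = 0.0503) and ABCC2 for oxamate against normoxia was 0, and the block changed no other call among the members.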
